A study of Mus musculus with 4 samples.

Results

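The killer cell genes described here are 8 granzymes (Gzma, Gzmb, Gzmc, Gzmd, Gzme, Gzmf, Gzmg and Gzmk), perforin (Prf1) and Nkg7, 10 of the 32285 genes counted by single-cell RNA sequencing of immune cells from mouse mammary tumors. They were chosen by name, as the genes of the cytotoxic granule, and were followed through cells gated on lineage transcripts that were not themselves members. EO771 cells, a mammary carcinoma line of C57BL/6 origin, were grown in the mammary fat pad of female C57BL/6 mice, and viable CD45+ cells were sorted from 4 tumors. Of these, 2 came from Csf1rfl/fl mice, which carry floxed alleles of the colony stimulating factor 1 receptor and no Cre, and 2 from Lyve1CreCsf1rfl/fl mice, in which the same floxed alleles meet a Cre driven by the Lyve1 locus, so that LYVE-1+ macrophages lose the receptor. Lyve1 is also expressed by lymphatic endothelium, so the Cre is not specific to macrophages. In each of 2 Chromium runs a Csf1rfl/fl and a Lyve1CreCsf1rfl/fl tumor were pooled, and hashtag antibodies marked the tumor of a cell. The comparison by genotype asks whether the loss of these macrophages moved the killing genes of lymphocytes. The comparisons between cell types and states ask which cells held the transcripts.

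Granzymes are serine proteases that cytotoxic lymphocytes store in granules, and perforin forms the pores through which they enter a target cell. Granzyme B cleaves proteins after aspartate and starts apoptosis, granzyme A and granzyme K cleave after basic residues, and granzymes C to G are rodent proteases whose genes lie beside Gzmb. Nkg7 encodes a membrane protein of the granule that helps it release its content. Natural killer (NK) cells carry such granules, CD8 T cells load them after activation, and regulatory T cells (Treg) can also express Gzmb. Only RNA was measured here, not the proteins.

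The table held 53361 barcodes, of which the 28429 (53.3%) that the authors kept were used. Per tumor these were between 4771 and 8699 cells with 27686362 to 56715743 unique molecular identifiers (UMIs, 1 per captured transcript molecule) and a median of 3721 to 4657 UMIs per cell. The gates held 1407 NK cells, 2856 CD8 T cells, 134 gamma delta T cells, 1418 Treg and 633 conventional CD4 T cells, and 3186 mononuclear phagocytes, 5255 neutrophils and 675 dendritic cells served as cells that should lack these transcripts. A further 12865 kept cells met no gate. Of the kept barcodes, 60 occurred in both runs. In the Csf1rfl/fl tumor of run 1, 6.82% of cells had a hashtag ratio under 3, against 0.218 to 1.41% in the other 3 tumors. The authors had removed clusters made almost wholly of 1 tumor, which took lymphocytes from the Lyve1CreCsf1rfl/fl tumor of run 2. In mononuclear phagocytes Csf1r, the targeted gene, stood at 3.22 and 3.30 UMIs per 10000 in Csf1rfl/fl and at 2.81 and 2.73 in Lyve1CreCsf1rfl/fl, but the gate itself required a Csf1r UMI and 3′ tags lie outside the deleted part, so these values check nothing about the deletion.

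The gates were checked on markers they did not use. Of 5 NK markers, 4 were highest in the NK gate, and Cd160 was highest in gamma delta T cells. The summed NK markers ran from 12.7 to 18.0 UMIs per 10000 in NK cells and from 4.17 to 4.94 in CD8 T cells. Of 7 gamma delta markers, 6 were highest in their own gate, and of 5 Treg markers, 5 were highest in Treg. The conventional CD4 gate went partly against its label, because its summed Treg markers, at 20.9 to 33 UMIs per 10000, came close to the 38.5 to 46.7 of Treg. Of 2 CD8 markers Trac was highest in Treg (6.84 UMIs per 10000 against 5.43), and of 4 mononuclear phagocyte markers Cd14 and Fcgr3 were highest in neutrophils (20.6 against 1.71, and 6.23 against 2.71). Of 4 mast cell and basophil genes, Fcer1a was at 0 in every gate, Cpa3 and Mcpt8 were at most at 0.00136 and 0.0164, and Kit, which other cells express too, reached 0.749 in NK cells, 0.309 in CD8 T cells and 0.602 in dendritic cells.

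The genes lie at 4 places in mm10. Gzmb (chr14:56258838-56262260), Gzmc (chr14:56231441-56234656), Gzmf (chr14:56205263-56211417), Gzmg (chr14:56156582-56159579), Gzmd (chr14:56129556-56132608) and Gzme (chr14:56117626-56120625) stand in a row on the minus strand. Gzma (chr13:113093825-113100981) and Gzmk (chr13:113171608-113225908) are neighbors on the minus strand of chromosome 13. Prf1 (chr10:61297833-61304680) and Nkg7 (chr7:43437073-43438249) lie alone on the plus strand of their chromosomes. The last 400 bases of the transcripts, from which 3′ tags come, shared no stretch of 75 bases between granzymes, except that 4.29% of such stretches of Gzmg also occurred in Gzmn.

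The promoters of the chromosome 14 genes are shown because these genes lie side by side and were found in very different shares of killer cells, Gzmb in most NK and CD8 T cells and the others in fewer. Each is the 200 bases before the RefSeq start (GRCm38.p6, which is mm10; minus strand, read 5′ to 3′). Capitals mark matches on either strand. The Runx site was searched as TGTGGT. The T-box core site was searched as GTGTGA. The AP-1 site, a palindrome, was searched as TGANTCA. The windows lie at chr14:56262335-56262534 for Gzmb, chr14:56234658-56234857 for Gzmc, chr14:56132594-56132793 for Gzmd, chr14:56120626-56120825 for Gzme and chr14:56211408-56211607 for Gzmf.
Gzmb: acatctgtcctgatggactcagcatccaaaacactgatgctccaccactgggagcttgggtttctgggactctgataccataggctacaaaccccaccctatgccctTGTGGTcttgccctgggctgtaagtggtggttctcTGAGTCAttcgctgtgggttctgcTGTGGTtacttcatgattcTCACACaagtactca
Gzmc: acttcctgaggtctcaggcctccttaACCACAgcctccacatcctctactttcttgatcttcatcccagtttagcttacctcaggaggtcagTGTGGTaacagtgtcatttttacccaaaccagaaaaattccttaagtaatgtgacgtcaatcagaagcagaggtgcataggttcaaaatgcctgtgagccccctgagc
Gzmd: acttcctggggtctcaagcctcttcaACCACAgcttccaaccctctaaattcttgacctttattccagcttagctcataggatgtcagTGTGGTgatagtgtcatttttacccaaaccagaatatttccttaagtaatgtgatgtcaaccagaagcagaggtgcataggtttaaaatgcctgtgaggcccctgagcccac
Gzme: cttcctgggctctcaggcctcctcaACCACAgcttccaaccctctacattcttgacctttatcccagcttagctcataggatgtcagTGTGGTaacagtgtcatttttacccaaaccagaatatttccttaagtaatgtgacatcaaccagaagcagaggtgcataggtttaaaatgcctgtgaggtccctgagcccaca
Gzmf: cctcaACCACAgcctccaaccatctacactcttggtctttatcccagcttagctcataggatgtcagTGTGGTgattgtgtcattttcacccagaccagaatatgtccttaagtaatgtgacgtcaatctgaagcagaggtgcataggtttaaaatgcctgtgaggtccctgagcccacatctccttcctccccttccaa

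Each of these 5 promoters, and that of Gzmg, held 2 Runx sites. A promoter with at least 2 was found for 1.27% of the 32851 RefSeq promoters of 250 bases, and with at least 1 for 14%. The 2 sites began 62 bases apart in Gzmd, Gzme, Gzmf and Gzmg, 66 apart in Gzmc and 59 apart in Gzmb. A pair exactly 62 bases apart occurred in 7 promoters of all, which were those 4 and Cd82, Gm10804 and Nat8f6. The T-box site, in 12.3% of promoters, was found in Gzmb, Gzmk and Nkg7 among the members, and the AP-1 site, in 6.75%, was found in Gzmb. These matches describe letters in a window and say nothing about binding.

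Levels are given as UMIs per 10000 UMIs of all cells of a gate in a tumor, and 4 values in a row are always in the order Csf1rfl/fl run 1, Csf1rfl/fl run 2, Lyve1CreCsf1rfl/fl run 1 and Lyve1CreCsf1rfl/fl run 2. Prf1 was highest in NK cells, at 9.03, 9.50, 6.71 and 10.8 (9.01 ± 1.70, SD, n = 4 tumors). CD8 T cells followed at 4.46, 4.10, 3.68 and 4.02, and the 2 cell types did not overlap. Below them was a wide gap. Gamma delta T cells stood at 0.370 ± 0.0694 (SD, n = 4), conventional CD4 T cells at 0.255 ± 0.0515 and Treg at 0.225 ± 0.00266, so that CD8 T cells held 11 times the gamma delta level. A Prf1 UMI was seen in 82.3% of NK cells, 57.1% of CD8 T cells, 13.5% of gamma delta T cells, 7.19% of Treg and 0.841% of mononuclear phagocytes. With each cell thinned to 1500 UMIs, since gates differed in depth from a median of 2200 UMIs in neutrophils to 6760 in dendritic cells, these shares were 62.4, 34.4, 4.75, 3.13 and 0.277%. Even the Treg share therefore lay above that of phagocytes.

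Gzmb was present in every lymphocyte gate. NK cells held 28.4, 24.7, 25.0 and 26.6 UMIs per 10000, 4.38 times the 6.48, 6.18, 4.60 and 6.64 of CD8 T cells. Gamma delta T cells (4.29 ± 2.13, SD, n = 4), Treg (4.03 ± 0.435) and conventional CD4 T cells (3.17 ± 0.932) came next, with overlapping ranges. All 5 were far above mononuclear phagocytes, at 0.0581. The share of cells with a Gzmb UMI was 85.8% in NK cells, 55.0% in CD8 T cells, 49.5% in Treg and 33.9% in conventional CD4 T cells, against 2.95% in mononuclear phagocytes (75.4, 36.8, 32.6, 24.5 and 0.920% after thinning).

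Gzma was highest in NK cells, at 112.1, 75.4, 93.8 and 86.4 UMIs per 10000 (91.9 ± 15.4, SD, n = 4), and no other gate overlapped them. Gamma delta T cells held 8.89, 0.497, 0.214 and 0.615, and the high value belonged to the tumor with 17 such cells, 2 of which carried 35 and 25 of the 79 Gzma UMIs in the gate. Without the 3 cells with most Gzma UMIs, gamma delta T cells stood at 0.321 ± 0.161 (SD, n = 4). CD8 T cells held 2.48, 0.539, 2.38 and 0.795, higher in both tumors of run 1 than in both of run 2. In Treg the thinned share of cells with a Gzma UMI was 1.43%, below the 1.47% of mononuclear phagocytes and 1.93% of neutrophils, so that share was read as background. The Treg level was 0.219 ± 0.128 (SD, n = 4), with 77 of 152 UMIs in 3 cells, and 0.105 ± 0.0189 without them, against 0.095 in mononuclear phagocytes and 0.150 in neutrophils.

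Gzmc, the member beside Gzmb, was also highest in NK cells, at 23.3, 10.3, 23.6 and 22.1 UMIs per 10000. The Csf1rfl/fl tumor of run 2 stood apart at less than the other 3. Conventional CD4 T cells followed at 1.12 ± 0.588 (SD, n = 4), 17.6-fold lower, and CD8 T cells held 0.364, 1.11, 0.447 and 1.60. Of the 346 Gzmc UMIs in conventional CD4 T cells, 3 cells with 104, 40 and 39 held 52.9%, and without them that gate stood at 0.557 ± 0.241. CD8 T cells, at 0.879 ± 0.583 with all cells, overlapped it, and no order is read between these gates. Gzmd and Gzme were low and highest in NK cells, followed by CD8 T cells. Gzmd stood at 1.62, 1.11, 0.717 and 0.838 in NK cells and at 0.0731, 0.399, 0.327 and 0.229 in CD8 T cells, which did not overlap, while Gzme stood at 0.540 ± 0.146 and 0.231 ± 0.169, which did.

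Gzmf and Gzmk had the opposite order. CD8 T cells held 1.79, 2.87, 0.746 and 1.91 Gzmf UMIs per 10000 and NK cells 0.157, 0.806, 0.0535 and 0.0573, higher in CD8 T cells in 4 of 4 tumors although the ranges overlapped. The CD8 gate held 67.5% of all 4728 Gzmf UMIs of the kept cells. Gzmk, which in CD8 T cells is known from memory and transitional cells, was low everywhere. It stood at 0.303, 0.430, 0.468 and 0.203 in CD8 T cells and at 0.0508 ± 0.0162 (SD, n = 4) in NK cells, and 0 of 3186 mononuclear phagocytes had a UMI, which allows a share of cells with a UMI of up to 0.0942%.

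Nkg7 separated NK from CD8 T cells least. The 2 cell types held 18.4, 15.6, 16.7 and 15.8 UMIs per 10000 in NK cells and 19.7, 13.5, 17.3 and 11.8 in CD8 T cells, higher in NK cells in 2 of 4 tumors. Gamma delta T cells were at 7.24 ± 1.69 (SD, n = 4), conventional CD4 T cells at 3.69 ± 0.509 and Treg at 2.50 ± 0.558. The share of cells with a UMI was 96.0% in NK cells, 94.0% in CD8 T cells, 71.8% in gamma delta T cells and 38.7% in Treg, and 3.50% in mononuclear phagocytes. Of the granzymes outside the list, Gzmm was at 0.117 ± 0.0262 in NK cells and 0.0417 in CD8 T cells, and Gzmn gave 1 UMI in all cells.

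**Figure D1:**
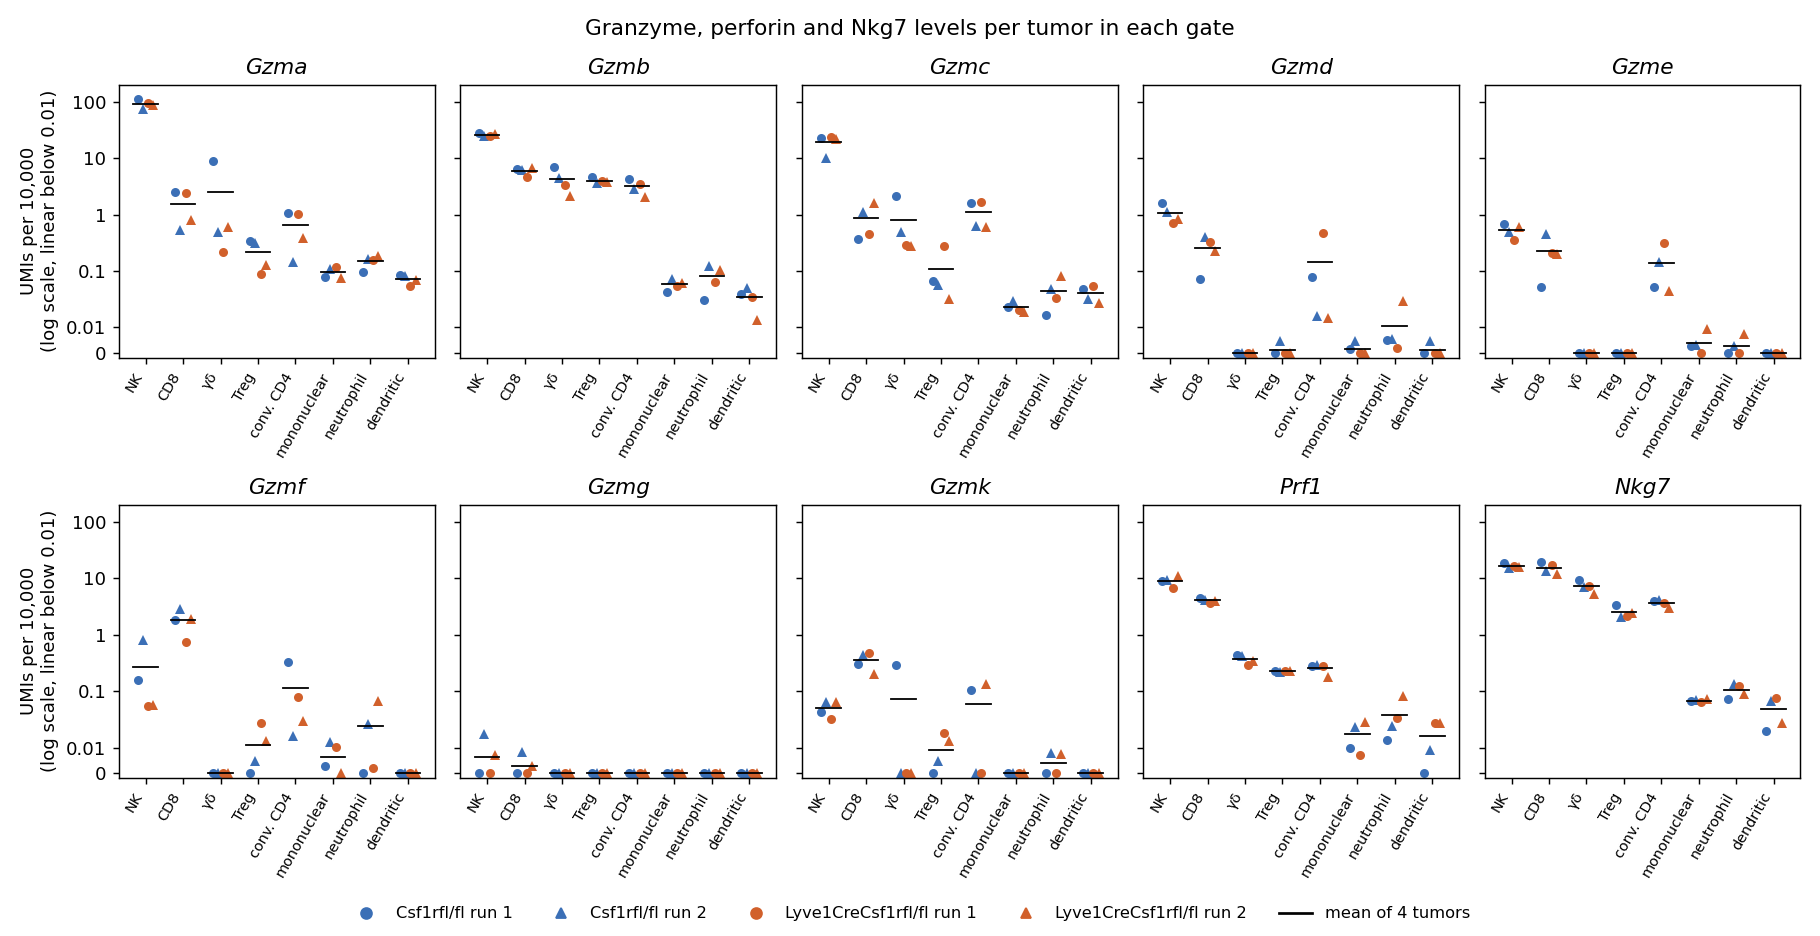
UMIs per 10000 of each of the 10 genes (y axis, linear near 0 and logarithmic above) in the 8 gates (x axis), 1 point per tumor: circles for run 1, triangles for run 2, blue for Csf1rfl/fl, orange for Lyve1CreCsf1rfl/fl, and a bar at the mean of 4 tumors. NK cells stand highest for Gzma (mean 91.9), Gzmb (26.2), Gzmc (19.8) and Prf1 (9.01), CD8 T cells for Gzmf (1.83) and Gzmk (0.351), and Nkg7 is at the same height in both (16.6 and 15.6).

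A gate's level was shared out very unevenly among its cells, and the unevenness differed between members. In NK cells, 50% of the Nkg7 UMIs lay in 358 cells (25.4%), those of Prf1 in 219 (15.6%), of Gzma in 201 (14.3%) and of Gzmb in 174 (12.4%). These 4 were thus spread over much of the gate. For Gzmc it was 43 cells (3.06%), and the tenth of cells with the most Gzmc UMIs held 89.0% of them. For Gzmd and Gzme it was 8 and 10 cells. The Gzmf level of NK cells came from almost no cells at all, since 3 cells with 98, 40 and 34 UMIs held 172 of 193. These 3 were all in Csf1rfl/fl tumors, and without them the 4 tumors stood at 0.0128, 0, 0.0535 and 0.0573.

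In CD8 T cells Nkg7, Prf1 and Gzmb were again the most widely spread, but Gzma was not. Nkg7 was spread over 672 cells (23.5%) for 50% of its UMIs, Prf1 over 303 (10.6%) and Gzmb over 208 (7.28%). For Gzmk it was 110 cells (3.85%), with at most 8 UMIs in a cell. Gzma needed 21 cells, Gzmf 20, Gzmc 10, and Gzmd and Gzme 8 each. Gzmf in CD8 T cells was therefore a high level in few cells, and Gzmk a low level in more of them.

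**Figure D2:**
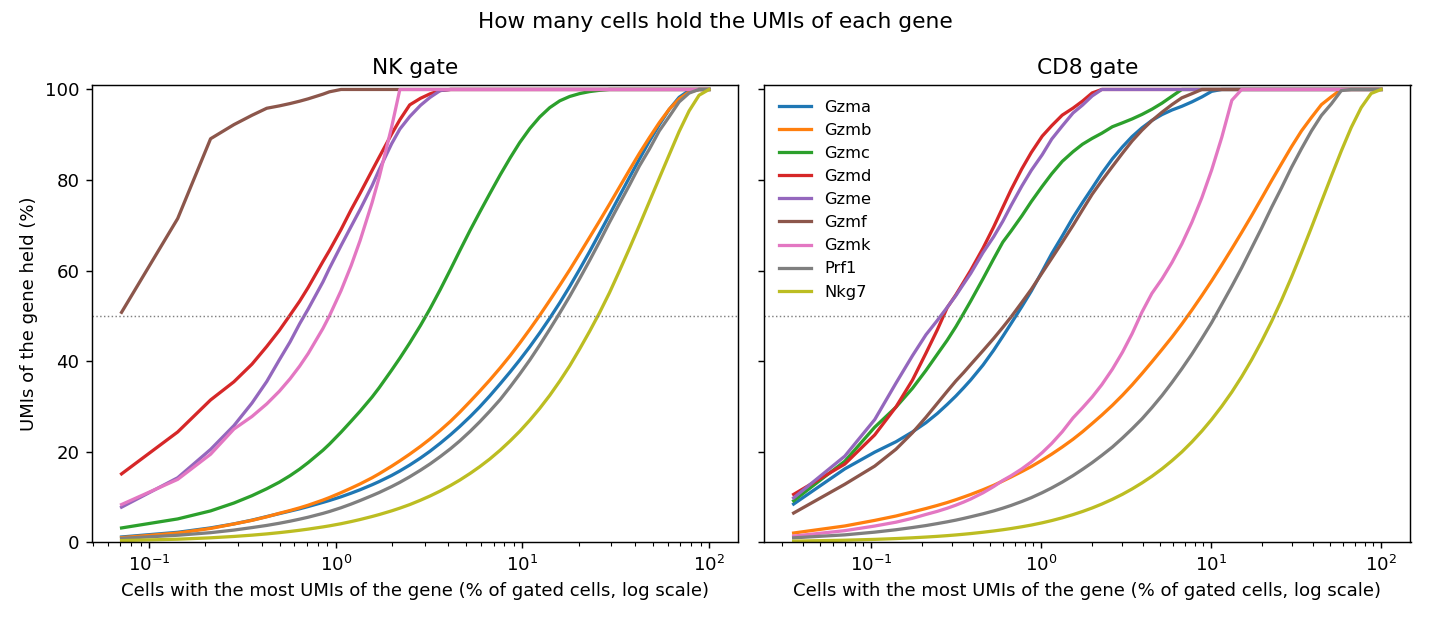
Percent of a gene's UMIs (y axis) held by the given percent of cells with the most of them (x axis, logarithmic), in the NK gate (1407 cells) and the CD8 gate (2856 cells), 1 line per gene with a dotted line at 50%. Nkg7 and Prf1 cross the dotted line farthest to the right (25.4% and 15.6% of NK cells, and 23.5% and 10.6% of CD8 T cells). Farthest to the left are Gzmf, Gzmd and Gzme in NK cells (1, 8 and 10 cells for 50% of the UMIs) and Gzmd, Gzme and Gzmc in CD8 T cells (8, 8 and 10 cells).

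Gzmd and Gzme lay within the NK cells that had Gzmc. All 53 NK cells with Gzmd and all 52 with Gzme also had Gzmc, and 43 of the 53 Gzmd cells had Gzme (81.1%, against 0.665% of the other NK cells). The reverse did not hold, since 53 of the 392 Gzmc cells had Gzmd (13.5%) and 13 had Gzmf (3.32%), and 5 of the 53 Gzmd cells had Gzmf (9.43%). The Gzmd cells were deep, with a median of 10300 UMIs against 3950. The 392 NK cells with Gzmc had a median of 6760 UMIs, against 3420 in those without, and per 10000 UMIs they held less Gzma (78.0 against 102, mean of 4 tumors) and less Nkg7 (14.1 against 18.6), both in 4 of 4 tumors. Their Gzmb was higher in 4 of 4 tumors (29.3 against 24.1), and their Prf1 was 9.11 against 9.01. Gzma and Gzmc thus differed within NK cells although both were highest in that gate. A Gzmc UMI was seen in 143 of 269 cycling NK cells (at least 2 UMIs of Mki67, Top2a and Birc5). It was seen in 208 of 981 NK cells with no UMI of these genes. The part of cycling in the Gzma and Nkg7 differences was not tested.

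CD8 T cells with Gzmf also held more of most other members. The 250 cells with a Gzmf UMI held 18.9 Gzmb UMIs per 10000 against 4.73 in the 2606 without, and 9.33 against 3.48 of Prf1, 6.35 against 0.242 of Gzmc, 2.33 against 0.0639 of Gzmd and 2.08 against 0.0464 of Gzme, each higher in 4 of 4 tumors. Their Gzmk (0.280 against 0.364) and Gzma (1.70 against 1.50) were higher in 1 of 4. Depth differed little, at medians of 5660 and 4710 UMIs. The 60 CD8 T cells with Gzmd were deeper than the others, with a median of 8690 UMIs against 4720. Of them, 43 had Gzmf (71.7%, against 7.40% of the others) and 40 had Gzme (66.7% against 0.787%), while 13.3% had Gzmk against 13.7%. The 392 cells with Gzmk were deeper than the others (a median of 5860 UMIs against 4620), and Gzma was found in 19.9% of them against 9.01%, Gzmb in 74.0% against 54.2% and Prf1 in 75% against 56.4%.

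In Treg the question was whether the cells with Gzmb also had Prf1 RNA. The 695 Treg with a Gzmb UMI held 0.306, 0.331, 0.295 and 0.352 Prf1 UMIs per 10000, and the 723 without it 0.0988, 0.114, 0.131 and 0.0841, so that the ranges did not overlap. A Prf1 UMI was seen in 70 of the 695 (10.1%) and in 4.15% of the others, at median depths of 3890 and 3140 UMIs. Both levels were far under the 4.07 ± 0.321 (SD, n = 4) of CD8 T cells.

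Cell types were compared on summed counts per tumor with the tumor as a block, with quasi-likelihood fits of edgeR, and p-values were adjusted by Benjamini-Hochberg over all genes tested, with 0.05 as the threshold. A member that reaches the count minimum of the filter in 1 cell type alone can hardly fail to differ, so the counts given are of members over that minimum in all 4 tumors of both groups. Between CD8 T cells and NK cells 7 of 8 such members changed, where 21.2% of all genes did, and the 9 tested included Gzmk, which was under the minimum in 1 NK tumor. Lower in CD8 T cells were Gzma (log2 fold change -6.18 ± 0.292, SE; adjusted p = 1.227e-07), Gzmc (-4.69 ± 0.426; adjusted p = 1.807e-05), Gzmd (-2.24 ± 0.412; adjusted p = 0.002572), Gzmb (-2.20 ± 0.08; adjusted p = 1.951e-08), Gzme (-1.52 ± 0.431; adjusted p = 0.0284) and Prf1 (-1.19 ± 0.09; adjusted p = 4.464e-06). Gzmf was higher (2.96 ± 0.327; adjusted p = 7.799e-05). Gzmk, which is not counted, differed by 2.75 ± 0.258. Nkg7, at -0.17 ± 0.082, did not pass (adjusted p = 0.1727). The Gzme call did not hold with DESeq2 (adjusted p = 0.1607), without the Lyve1CreCsf1rfl/fl tumor of run 2 (0.1087) or without the block (0.0532), and over its 11 alternatives the adjusted p ran from 2.7e-17 to 0.1607.

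Of 10 genes that load the granule, 2 were higher and 4 lower in CD8 T cells, among them the protease Ctsl (1.04) and Ctsw (-0.79), a cathepsin of killer lymphocytes, and Srgn (-0.44), the proteoglycan that binds granzymes. Of 11 release genes, 3 were higher, with the lysosome trafficking regulator Lyst at 1.10, and 3 lower. Of 6 serpins, which inhibit proteases and guard the killer cell, 1 was higher and 4 lower, with Serpinb9, the inhibitor of granzyme B, at -1.80. Of 7 other effector genes 3 were higher and 3 lower (the chemokines Xcl1 at -2.03 and Ccl5 at -1.51, Tnfsf10 at 0.96), and of 16 transcription factors 3 were higher and 7 lower (Tox at 2.35, Eomes at -2.23). Of 9 cytokine receptors, 1 was higher (Il21r at 2.18) and 4 lower (Il12rb2 at -1.62). The medians of the 6 lists were -0.29, 0.03, -1.07, 0.33, -0.38 and -0.37, against 0.004 over all genes tested, and Gzmm was lower at -1.56.

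Of 7 members tested between gamma delta T cells and NK cells, 5 were over the minimum in both, and all 5 were lower in gamma delta T cells, where 7.94% of all genes changed and 4.63% were lower. The minimum is a level scaled to the library sizes, so in this small gate very few UMIs met it. Prf1 met it with 3, 5, 4 and 5 UMIs in gamma delta T cells, and Gzmc with 15, 6, 4 and 4. The minimum thus hardly guards here, and the 5 are not read against these shares. The other members tested, Gzmd and Gzme, entered through their counts in NK cells, so their direction was fixed and nothing is read from it. The differences were -5.89 ± 0.374 for Gzma (SE; adjusted p = 7.424e-10), -5.01 ± 0.265 for Gzmc (adjusted p = 4.643e-11), -4.69 ± 0.201 for Prf1 (adjusted p = 1.789e-12), -2.78 ± 0.162 for Gzmb (adjusted p = 2.193e-10) and -1.29 ± 0.113 for Nkg7 (adjusted p = 1.031e-07). Gzmd and Gzme had no UMI in the gate, and with a floor of 3 counts over the group NK cells were at least 17.8-fold and 8.66-fold higher. The 134 cells limit this comparison, in which no minimum per tumor was set, and a count of 0 among them allows a share of cells with a UMI of up to 2.24%. The calls held without the tumor of 17 cells. Its Gzma level of 8.89 UMIs per 10000 stood far above the 0.497, 0.214 and 0.615 of the others, so the size of the Gzma difference depends on it. Serpinb9 (-2.24) was also lower, as was 1 of 10 loading genes. Of 7 other effector genes, 2 were higher (Tnf at 1.78 and Lta at 1.65) and 3 lower (Ifng at -1.57). Tnf stood at 0.146, 0.497, 0.428 and 2.19 UMIs per 10000 in gamma delta T cells, and without the Lyve1CreCsf1rfl/fl tumor of run 2 its difference was 0.61 (adjusted p = 0.6379). Lta did not pass when any of the 4 tumors was left out (adjusted p from 0.05155 to 0.1972). Of 11 release genes none passed, of 5 serpins 4 were lower, of 15 transcription factors 2 were higher and 6 lower (Eomes at -1.54), and of 9 cytokine receptors 1 was higher and 2 lower.

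Of 9 members tested between Treg and CD8 T cells, 4 were over the minimum in both (Gzma, Gzmb, Prf1 and Nkg7), and all 4 were lower in Treg, where 26.1% of all genes changed and 13.3% were lower. Gzmd, Gzme, Gzmf and Gzmk, with at most 9 UMIs in all Treg, were tested because of their counts in CD8 T cells, so their direction was fixed, and Gzmc was under the minimum in 1 Treg tumor. The Gzma share in Treg was read as background above, so the direction of Gzma was fixed as well. None of these members, Gzma included, is counted against that share. The smallest difference was that of Gzmb (-0.69 ± 0.075, SE; adjusted p = 5.33e-06). Prf1 differed by -4.30 ± 0.089 (adjusted p = 6.151e-13) and Nkg7 by -2.77 ± 0.093 (adjusted p = 2.293e-11). Of the members not counted, Gzmc differed by -2.92 ± 0.425, Gzmf by -7.23 ± 0.28 and Gzmk by -5.33 ± 0.303, and no p-value is read for them. Gzme had no UMI in 1418 Treg, which allows a share of cells with a UMI of up to 0.212% and sets no limit on cells that express the gene, and CD8 T cells were at least 48.3-fold higher. Gzmd had 1, for a ratio of 162 with an exact Poisson interval of 29.1 to 6390 for counting error only. Of 10 loading genes, 3 were higher in Treg (M6pr, a receptor that sorts lysosomal enzymes, at 1.21) and 6 lower (Ctsw at -3.55). Of 5 serpins, 5 were lower, and of 7 other effector genes 5 were lower, with Ifng at -4.12 and Fasl at -3.75. Of 11 release genes 2 were higher (Stx11 at 1.53) and 1 lower (Lyst at -1.93), of 16 transcription factors 4 were higher and 10 lower (Eomes at -4.62), and of 9 cytokine receptors 3 were higher (Il2ra, the interleukin 2 receptor chain of Treg, at 2.75) and 4 lower.

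Against conventional CD4 T cells, 2 of the 3 members over the minimum in both passed (Gzmb and Nkg7, but not Prf1), where 5.75% of all genes did. Gzmc and Gzma passed too, but were under the minimum in 3 and 1 of the Treg tumors. Nkg7 (-0.61 ± 0.099, SE; adjusted p = 0.0001444) was lower in Treg, while Gzmb was slightly higher (0.33 ± 0.095; adjusted p = 0.03126). Prf1 was at -0.21 ± 0.213 (adjusted p = 0.6957; 1.26 among non-cycling cells, adjusted p = 0.08975). Gzmc differed by -3.32 ± 0.211 and Gzma by -1.64 ± 0.321, and their calls are not counted. The Gzmc and Gzma levels of conventional CD4 T cells came from few cells, since 3 of 633 cells held 52.9% of the Gzmc UMIs and 3 held 50.2% of the Gzma UMIs, and the share of cells with a Gzmc UMI was 5.35% against 2.97% in Treg. Without those 3 cells conventional CD4 T cells stood at 0.338 ± 0.323 (SD, n = 4) for Gzma. The Gzmb call did not hold in 5 alternatives. Its adjusted p was 0.4205 without the Lyve1CreCsf1rfl/fl tumor of run 2, 0.1443 without the Csf1rfl/fl tumor of run 2, 0.2553 with DESeq2, 0.13 without the cells of most UMIs and 0.7317 without the block, and ran from 0.0001307 to 0.7317 over 11 alternatives. Gzma did not pass without the Lyve1CreCsf1rfl/fl tumor of run 1 (adjusted p = 0.06668), with DESeq2 (0.8538) or without the block (0.1572), nor did Nkg7 among non-cycling cells (0.08126) or without the block (0.2002). Over the alternatives the adjusted p of Gzma ran from 2.347e-16 to 0.8538 and that of Nkg7 from 3.488e-08 to 0.2002. The conventional gate also held Treg transcripts, such as Ikzf2 at 9.70 UMIs per 10000 against 15.7 in Treg, and their part in these differences was not tested. Of 10 loading genes 1 was higher and 2 lower in Treg, of 11 release genes 2 were lower, and of 6 serpins 4 were lower (Serpinb9 at -1.32). Of 7 other effector genes 4 were lower (Ifng at -2.90, and Fasl at -1.62, which without the Csf1rfl/fl tumor of run 1 had an adjusted p of 0.05184), of 14 transcription factors 2 were higher and 4 lower (Tcf7 at -1.92), and of 9 receptors Il2ra was higher (0.84).

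CD8 T cells were divided by Havcr2, which encodes the inhibitory receptor TIM-3 of dysfunctional effector cells, and Tcf7, the transcription factor of stem-like cells. Of 8 members tested, 4 were over the minimum in both states (Prf1, Gzmb, Gzma and Nkg7), and all 4 were higher in cells with Havcr2 and no Tcf7 than in cells with Tcf7 and no Havcr2, where 18.3% of all genes changed and 7.93% were higher. Gzmc, Gzmd, Gzmf and Gzmk were under it in 1 or more tumors of the Tcf7 cells and are not counted. Prf1 stood at 5.91, 6.16, 6.49 and 7.97 UMIs per 10000 in the Havcr2 cells and at 0.402, 0.375, 0.447 and 0.550 in the Tcf7 cells (log2 fold change 3.81 ± 0.104, SE; adjusted p = 2.118e-11). Gzmb stood at 7.96, 9.14, 6.53 and 12.3 against 2.95, 0.937, 1.64 and 2.14 (2.18 ± 0.191; adjusted p = 2.274e-06). For Prf1 and Gzmb the groups did not overlap. Gzmf, which is not counted, stood at 2.79, 5.30, 1.76 and 5.0 against 0.153, 0.159, 0 and 0.00901 (5.74 ± 0.336), and no p-value is read for it. The Tcf7 cells held Nkg7 at 8.80, 5.93, 7.53 and 6.28, and 26.7% of them had a Gzmb UMI.

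Gzma (1.83 ± 0.358, SE; adjusted p = 0.002223) and Nkg7 (1.32 ± 0.063; adjusted p = 8.306e-09) were also higher in Havcr2 cells. Of the members not counted, Gzmc differed by 2.33 ± 0.397 and Gzmk by 1.45 ± 0.287, and no p-value is read for them. Gzmd had no UMI in the Tcf7 cells, so that the Havcr2 cells were at least 43.7-fold higher. The median depth per tumor was 5119 to 6549 UMIs in the Havcr2 cells and 4666 to 5576 in the Tcf7 cells. Of 10 loading genes, 3 were higher in Havcr2 cells (the cystatin Cst7 at 1.07, Gnptab at 0.90) and 1 lower (Lamp1 at -1.19). Of 11 release genes, 3 were higher and none lower, namely Lyst at 1.14, Rab27a at 0.89, a GTPase that docks granules, and Vamp8 at 0.48. Of 5 serpins 2 were higher. Of 7 other effector genes Ifng (1.69) and Fasl (1.26) were higher and Xcl1 (-2.03) lower, and of the transcription factors 6 were higher (Prdm1 at 2.0) and 5 lower (Bach2 at -3.32, Klf2 at -2.56), Tcf7 among them by the choice of cells. Of 9 receptors, 2 were higher (Il12rb1 at 1.52) and 2 lower.

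**Figure D3:**
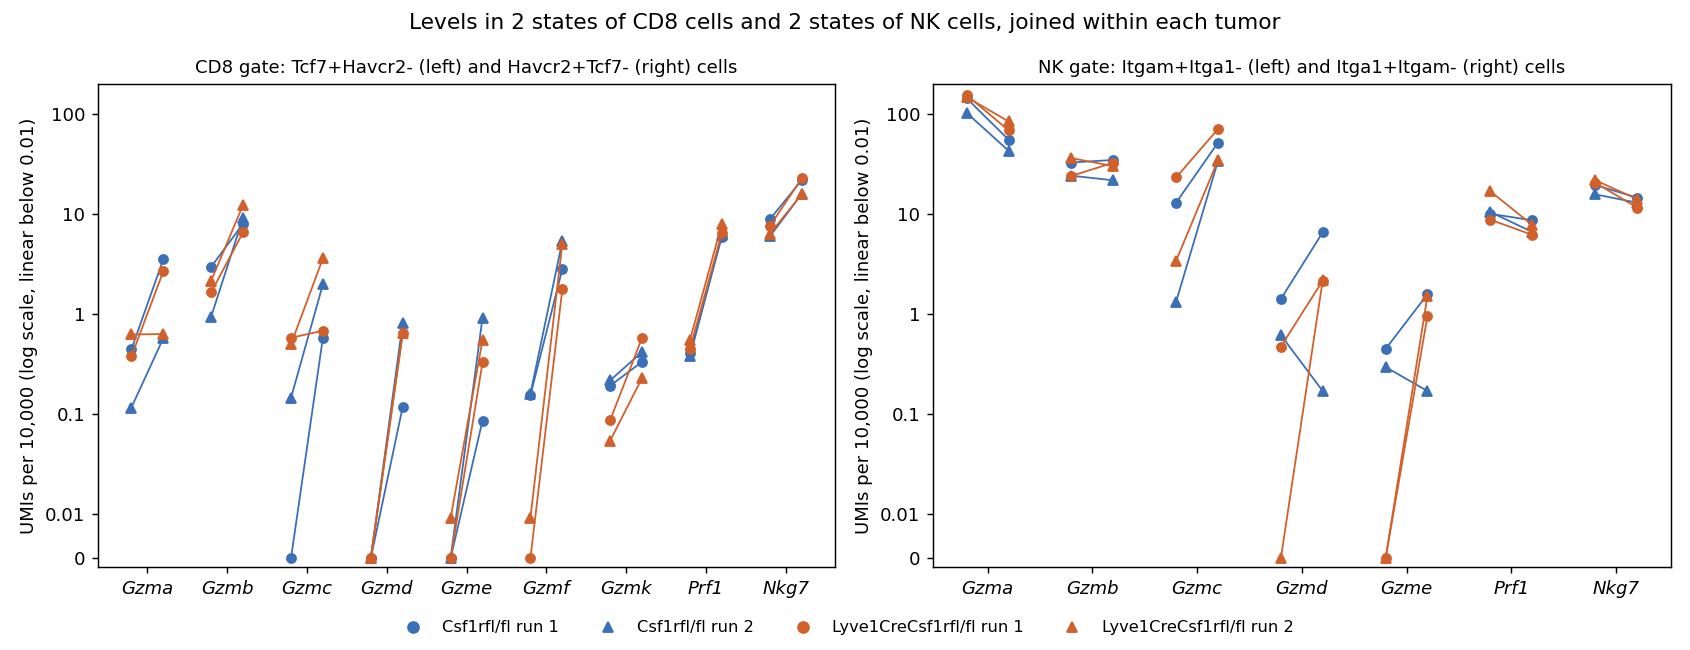
UMIs per 10000 of the members (y axis, linear near 0 and logarithmic above) in 2 states of CD8 T cells (left, Tcf7+Havcr2- and Havcr2+Tcf7-) and of NK cells (right, Itgam+Itga1- and Itga1+Itgam-), with a line joining the states of 1 tumor, circles for run 1, triangles for run 2, blue for Csf1rfl/fl and orange for Lyve1CreCsf1rfl/fl. Prf1 goes up in all 4 tumors in Havcr2 cells (from 0.375 to 0.550 to 5.91 to 7.97), while in Itga1 NK cells Gzmc goes up and Gzma down in all 4.

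Prf1 and Gzmb did not differ detectably between cycling and other CD8 T cells. Between cycling CD8 T cells, with at least 2 UMIs of Mki67, Top2a and Birc5, and those with none, 3 of the 7 members over the minimum in both passed, where 34.9% of all genes did. That count is near the share over all genes and is not read as a trait of the members. Cycling cells were deeper, since 949 of them held 8601797 UMIs and the 1499 others held 6451026. The part of depth in these differences was not tested. Prf1 stood at 3.82, 3.92, 3.79 and 4.42 UMIs per 10000 in cycling cells and 5.09, 4.38, 3.48 and 3.06 in the others. It was thus lower in cycling cells in both Csf1rfl/fl tumors and higher in both Lyve1CreCsf1rfl/fl tumors. Over all tumors its difference was -0.01 with edgeR (adjusted p = 0.9441), and Gzmb differed by 0.12 (adjusted p = 0.2932). Gzmc was higher in cycling cells (1.78 ± 0.434, SE; adjusted p = 0.003974), with 0.638, 1.53, 0.380 and 2.68 against 0.119, 0.608, 0.647 and 0.0876, so that the Lyve1CreCsf1rfl/fl tumor of run 1 went the other way. Gzma (-0.62 ± 0.194; adjusted p = 0.01844) and Nkg7 (-0.29 ± 0.076; adjusted p = 0.007265) were lower. None of these 3 passed without the cells of most UMIs, without the Csf1rfl/fl tumor of run 2 or without the block. Over the alternatives the adjusted p ran from 3.609e-40 to 0.1685 for Gzmc, from 1.047e-06 to 0.7316 for Gzma and from 0.0003947 to 0.4015 for Nkg7. Of 10 loading genes 4 were lower, among them Lamp1 (-0.53), a membrane protein of lysosomes and granules. Of 11 release genes 1 was lower, of 5 serpins 1, of 16 transcription factors 7 and of 9 receptors 4, with none higher in these lists, and of 7 other effector genes 1 was higher and 4 lower (Ccl5 at -1.66).

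NK cells were divided by Itga1, the integrin CD49a of tissue-resident NK cells and type 1 innate lymphoid cells, and Itgam, the integrin CD11b of mature circulating NK cells. The Itga1 cells were few, at 23, 23, 21 and 27, against 99, 89, 66 and 55 Itgam cells, and deeper, with medians of 4568 to 7927 UMIs against 3294 to 4646. Of 6 members tested 5 were over the minimum in both, of which 4 passed, where 4.19% of all genes did. Gzmc stood at 51.4, 33.8, 70.3 and 34.4 UMIs per 10000 in Itga1 cells and at 12.9, 1.32, 23.1 and 3.39 in Itgam cells (2.84 ± 0.37, SE; adjusted p = 0.0009628). Gzma went the other way, at 55.2, 42.7, 68.3 and 83.9 against 142.6, 102.1, 153.8 and 146.5 (-1.11 ± 0.086; adjusted p = 1.092e-05). Neither pair of groups overlapped. Fewer of the Itga1 cells were free of cycling transcripts (42 of 94, 44.7%) than of the Itgam cells (237 of 309, 76.7%). Among these cells Gzmc stood at 41.4, 16.1, 54.5 and 59.1 in Itga1 cells and at 8.58, 0.447, 8.45 and 4.86 in Itgam cells, which did not overlap. Gzma stood at 79.5, 46.6, 181 and 55.3 against 163, 113, 147 and 143, so that the Lyve1CreCsf1rfl/fl tumor of run 1, with 9 such Itga1 cells, went the other way. No fit was made among them. In the fit of all cells Gzmb, at 0.07 ± 0.107, did not pass (adjusted p = 0.7977).

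Gzmd was tested without being over the minimum in both groups, so its call is not counted. It stood at 6.53, 0.169, 2.15 and 2.18 in Itga1 cells and at 1.41, 0.612, 0.470 and 0 in Itgam cells (2.06 ± 0.509, SE). The Csf1rfl/fl tumor of run 2 went the other way, and 1 cell of the Csf1rfl/fl tumor of run 1 held 124 of the 219 Gzmd UMIs of the Itga1 cells. Nkg7 (-0.50 ± 0.116; adjusted p = 0.03318) and Prf1 (-0.58 ± 0.15; adjusted p = 0.04975) were lower. These 3 did not pass without the Csf1rfl/fl tumor of run 1, the Lyve1CreCsf1rfl/fl tumor of run 1 or that of run 2, and Prf1 did not without the Csf1rfl/fl tumor of run 2 either (adjusted p = 0.1345). Over 8 alternatives the adjusted p ran from 5.337e-12 to 0.4116 for Gzmd, from 0.0006375 to 0.338 for Nkg7 and from 0.001041 to 0.3315 for Prf1. Gzmc did not pass without the block (adjusted p = 0.1285), and over its alternatives the adjusted p began at 1.537e-100. That value lies far below the one of the main fit, and nothing is read from it. No loading, release or serpin gene passed of the 8, 4 and 4 tested. Of 4 other effector genes Xcl1 was higher (1.04) and Ccl5 lower (-3.93), and of 12 transcription factors 1 was higher and 2 lower, none of which passed without the Csf1rfl/fl tumor of run 1 (Tcf7 at 0.97, Klf2 at -1.07 and Irf8 at -0.66 with all tumors). Of 5 receptors 1 was lower, Il12rb2 (-1.47), which did not pass without that tumor either (adjusted p = 0.1336).

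By genotype no member passed in NK cells, CD8 T cells or Treg, the gates fitted with all 4 tumors, where 0% of the genes tested did in NK cells, 0% in CD8 T cells and 0% in Treg by edgeR, and 107, 170 and 172 genes had an unadjusted p under 0.05. In NK cells the log2 fold change of Lyve1CreCsf1rfl/fl over Csf1rfl/fl was -0.08 ± 0.384 (SE, 2 tumors against 2) for Gzma, -0.05 ± 0.325 for Gzmb, -0.10 ± 0.307 for Prf1 and 0.40 ± 0.423 for Gzmc. In CD8 T cells it was -0.18 ± 0.244 for Gzmb, -0.15 ± 0.226 for Prf1, -0.18 ± 0.368 for Nkg7 and -0.81 ± 0.366 for Gzmf. In Treg it was -0.12 ± 0.252 for Gzmb. The largest values were those that few cells carried. NK Gzmf was at -3.01 ± 0.634 (unadjusted p = 0.0004892, adjusted p = 1 with edgeR) and Treg Gzma at -1.60 ± 0.295 (unadjusted p = 0.0002902, adjusted p = 0.9999).

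With the run as a block, NK Gzmf passed (-2.83 ± 0.384, SE; adjusted p = 0.0006243), the single gene of 9095 to do so (0.011%), and Treg Gzma passed (-1.61 ± 0.288; adjusted p = 0.01789) among 27 of 9381 genes (0.288%). Over the alternatives the adjusted p ran from 3.863e-20 to 1 for NK Gzmf and from 0.001311 to 1 for Treg Gzma. Both values rest on single cells. The 3 NK cells named above carried 172 of the 193 Gzmf UMIs, and 3 Treg with 44, 19 and 14 Gzma UMIs, all in Csf1rfl/fl tumors, held 77 of 152, without which the 4 tumors stood at 0.0914, 0.109, 0.0892 and 0.130. In both, the Csf1rfl/fl tumor of run 2 held the highest cell. None of the genes of the loading, release, serpin, effector, transcription factor and receptor lists passed by genotype in NK cells, CD8 T cells or Treg. The difference of the genotype effect between CD8 T cells and NK cells passed for no member either, where 0% of genes did, with Gzmf at 1.96 ± 0.655 (unadjusted p = 0.01707, adjusted p = 1). Gamma delta T cells, with 17 cells in the Csf1rfl/fl tumor of run 1, were under the 20 cells per tumor set for a fit by genotype, and a fit without that tumor called 0 of 2 members tested. Gzmb in gamma delta T cells stood at 7.14 and 4.47 UMIs per 10000 in Csf1rfl/fl and at 3.42 and 2.12 in Lyve1CreCsf1rfl/fl, which did not overlap, with a Gzmb UMI in 64.7 and 41.2% against 26.8 and 21.4% of cells. With each CD8 T cell thinned to 1500 UMIs, the shares of cells with a Prf1 or a Gzmb UMI did not overlap either. For Prf1 they were 43.1 and 35.2% in Csf1rfl/fl and 28.2 and 31.3% in Lyve1CreCsf1rfl/fl. For Gzmb they were 46.7 and 38.5% against 27.5 and 34.6%. The thinned CD8 shares of Gzma, Gzmc and Nkg7 overlapped, as did the NK shares of Prf1 and Gzmb. Other thinned shares did not overlap. In CD8 T cells Gzmf stood at 7.5 and 8.19% against 2.14 and 5.8%, and Gzmk at 4.97 and 7.05% against 4.94 and 4.39%. In NK cells Gzma stood at 80.5 and 83.5% against 76.4 and 80.0%, and Nkg7 at 88.1 and 88.8% against 81.9 and 84.5%. NK Gzmc went the other way, at 22.5 and 14.8% against 27.0 and 26.1%. Treg Prf1 stood at 4.91 and 3.12% against 1.88 and 2.6%. These shares were not tested. A single value such as a level or share per tumor, at 2 tumors against 2, cannot give an exact permutation p below 0.333.

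The genes with the most similar pattern were found over 32 sums (8 gates in 4 tumors, which share libraries and tumors) by Pearson's correlation of log2 levels among 12743 genes. Nearest to Nkg7 were Sh2d1a (0.990), the adaptor SAP, Ctla2a (0.985) and Sh2d2a (0.984). Nearest to Gzmb were Ctla2a (0.981), Gm19585 (0.978) and Nkg7 (0.975), and nearest to Prf1 were Chsy1 (0.934), Nkg7 (0.918) and Ctsw (0.914). Gzma had Adamts14 (0.912), Gzmc (0.910) and Styk1 (0.909), and Gzmk had none above 0.845, that of Adrb1. These values describe likeness over cell types and carry no test.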

How the data were processed

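Single-cell libraries (10x 3′ v2) of CD45+ tumor cells had been aligned to mm10 by the authors with Cell Ranger 6.0.1. The deposited raw table holds counts of UMIs per gene and hashtag, and the deposited normalized table holds normalized scores, of which the cell names and hashtag scores alone were used, so the authors' filters (singlets, under 5% mitochondrial reads, no cluster over 90% from 1 sample) apply. Had the higher hashtag count been used instead of the score computed from the hashtag counts, 75 cells would change tumor. No doublet caller was run here.

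Cells were assigned to tumors by the higher hashtag score, which is the centered log ratio of a hashtag's counts over the cells of a run. NK cells had at least 2 UMIs of Ncr1, Klrb1c and Klre1 and no Cd3, Cd8, Cd4 or Foxp3. The other lymphocyte gates required at least 1 Cd3 UMI (gamma delta T cells 2) with Cd8a or Cd8b1, Trdc without Trac, Foxp3, or Cd4 without Foxp3. All lymphocyte gates excluded Csf1r, B cell markers, and high Lyz2 or S100a8 and S100a9. Mononuclear phagocytes had Csf1r and Lyz2. Where levels were compared, fewer expressing cells and less RNA per cell cannot be told apart except through the shares given.

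Counts were summed per tumor and gate and tested with edgeR 4.0.16 (R 4.3.3; filterByExpr, TMM, quasi-likelihood), DESeq2 1.42.0 being an alternative. Tumor was the block between cell types. Genotype had none in the main design, and the run, which is the replicate number of the labels, was the block in an alternative: run differences correlated between genotypes (0.459 in NK, 0.551 in CD8 and 0.538 in Treg), and the labels' number marks a shared run. Cells, not tumors, were thinned with a fixed seed. Other alternatives were no filter on low counts, stricter gates, a hashtag ratio of 3 or more, non-cycling cells, leaving out the 5% of cells with most UMIs, and leaving out each tumor. For genotype, p-values measure the spread between 2 tumors of each genotype. Between cell types and states, they measure the spread over 4 tumors of differences within a tumor. Some of the lowest adjusted p-values of the alternatives lie far below those of the main fits. They are not read as strength of a difference. Intervals and floors cover counting error only.

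Named list genes were at most the 4 with the largest change past the threshold. The members and lists were chosen with earlier results of these data known. Promoters and places come from RefSeq and GENCODE vM21. The fits by genotype in CD8 T cells and between CD8 T cells and NK cells were checked on simulated data. The simulation had a single dispersion for all genes (0.0312 and 0.1) and no effect of tumor or run. Of 200 genes changed by a log2 of 2, 200 and 199 were recovered, with 6 and 9 false calls. Smaller changes and the other comparisons were not checked.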

Additional observations from a re-analysis of the deposited data

Results flagged for a closer look

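In groups of 4 tumors, a highest or lowest level far from the other 3 was found for 7 of 35 levels with at least 20 UMIs, and chance gives about 1 in 20. In UMIs per 10000, Gzma in gamma delta T cells stood at 8.89 in the Csf1rfl/fl tumor of run 1, against 0.214, 0.497 and 0.615 in the others. Gzmc in the same gate and tumor stood at 2.19, against 0.273, 0.285 and 0.497. That tumor gave 17 gamma delta T cells, and without 2 of them, with 35 and 25 Gzma UMIs, its Gzma level was 0.157.

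Gzmc in NK cells stood at 10.3 in the Csf1rfl/fl tumor of run 2, against 22.1, 23.3 and 23.6. Gzmf in NK cells was highest in the same tumor, at 0.806 against 0.0535, 0.0573 and 0.157. In Treg, Gzmc stood at 0.277 in the Lyve1CreCsf1rfl/fl tumor of run 1, against 0.0326, 0.0568 and 0.068. In conventional CD4 T cells, Gzmd stood at 0.47 in the Lyve1CreCsf1rfl/fl tumor of run 1, against 0.0148, 0.016 and 0.0795, where 1 cell of that tumor held 39 of the 49 Gzmd UMIs of the gate, and Prf1 at 0.178 in the Lyve1CreCsf1rfl/fl tumor of run 2, against 0.275, 0.278 and 0.288.

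Gzmg was found outside the gates compared. Of its 382 UMIs, 374 lay in 7 cells of no gate, and 4 cells held 196, 62, 56 and 54 of them. These 4 cells also held 412, 469, 452 and 177 UMIs of Gzmc and 300, 99, 253 and 77 of Gzmd, with 22, 7, 10 and 25 UMIs of NK markers. The first was in the Csf1rfl/fl tumor of run 2 and the others in Lyve1CreCsf1rfl/fl tumors.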

How the results depend on the processing

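Of 448 alternative values of the 44 member differences called, 403 kept their direction and side of the threshold, and 0 reversed. The 44 include members under the count minimum in a group. Their direction could hardly reverse, so nothing is read from that count for them. Of 330 alternative levels, 306 moved by less than 1 SD and 24 by more. By genotype in NK cells, where 0 members passed, 1 passed with DESeq2, 1 with no filter on low counts and 1 with the replicate block, and 0 to 1 when a tumor was left out. That was Gzmf, which did not pass without the Csf1rfl/fl tumor of run 2. In Treg 1 passed with no filter, 1 with the block and 0 to 1 without a tumor: Gzma without the Csf1rfl/fl tumor of run 2 (-1.75) and Gzmc without the Lyve1CreCsf1rfl/fl tumor of run 2 (2.26). In CD8 T cells 0 to 2 passed, Gzmd (1.83) and Gzme (1.89) without the Csf1rfl/fl tumor of run 2. The block changed no other genotype call among members. Between Treg and conventional CD4 T cells (4), 2 passed with DESeq2, 7 with no filter and 1 without the tumor block. In cycling CD8 T cells (3), 1 passed with DESeq2, 0 without the cells of most UMIs, 0 without the block and 0 to 3 without a tumor. In Itga1 NK cells (5), 1 passed without the block and 2 to 5 without a tumor. The difference of genotype effects (0) gave 2 with no filter and 0 to 2 without a tumor. The cause was not tested. Over all genes the counts passing moved more: CD8 against NK 2108, DESeq2 1282; gamma delta against NK 557, DESeq2 351, no filter 884, without a tumor 306 to 560; Treg against CD8 2626, DESeq2 1499, no block 1547; Treg against conventional CD4 477, DESeq2 124, no block 69, strict gates 269, without cells of most UMIs 304, non-cycling 192, without a tumor 245 to 374; Havcr2 1493, DESeq2 758, no block 827, without a tumor 988 to 1314; cycling 3148, DESeq2 1544, no block 1826; Itga1 121, DESeq2 75, no filter 317, no block 28, without a tumor 40 to 102. By genotype no filter gave 18 genes in NK cells, 71 in CD8 T cells and 46 in Treg, and leaving out a tumor 12 to 22, 6 to 70 and 0 to 95. With at most 2 Cd3 UMIs allowed in NK cells, an alternative chosen after seeing the data (1670 cells), Gzmd stood at 1.91, Gzme at 0.808 and Gzmg at 0.306, and no member passed by genotype. Strict gates and leaving out deep cells were not run for Itga1 NK cells, where a tumor had under 20 cells, the minimum set for fits by genotype and state. Few UMIs limit Gzmd, Gzme, Gzmg and Gzmk.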

Other observations

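Cells that met no gate held 39.9% of all Gzma UMIs, 40.6% of Gzmb, 50.3% of Gzmc, 56.9% of Gzmd and 36.0% of Prf1. Among them were 1369 cells with at least 2 UMIs of NK markers and at least 1 of Cd3, which the NK gate leaves out. These cells alone held 24.1% of all Gzma UMIs, 22.9% of Gzmb, 35.1% of Gzmc, 47.9% of Gzmd, 40.0% of Gzme and 23.0% of Prf1, against 57.0, 33.6, 43.8, 27.8, 24.5 and 29.7% in the NK gate. Cells of this kind can be NK cells, T cells with NK receptors, or droplets that held both, and these were not told apart.

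Cycling NK cells were compared with NK cells without cycling transcripts. Gzma stood at 73.9, 58.8, 65.9 and 55.1 UMIs per 10000 in cycling NK cells and at 140.1, 80.3, 106.3 and 102.1 in the others. Prf1 was 6.23 ± 1.71 (SD, n = 4) against 10.4 ± 1.68, and Nkg7 11.8 ± 1.08 against 19.2 ± 2.24, while Gzmc was 27.4 ± 7.89 against 15.6 ± 5.28. Gzmd stood at 2.54, 1.30, 0.678 and 0.715 in cycling cells and at 0.733, 1.20, 0.857 and 1.01 in the others, higher in both Csf1rfl/fl tumors and lower in both Lyve1CreCsf1rfl/fl tumors, and Gzmf rested on the 3 cells with 98, 40 and 34 UMIs. In Treg, Gzmb stood at 2.77, 2.91, 2.51 and 3.14 in cycling cells and at 7.37, 4.87, 5.98 and 4.64 in the others, which did not overlap. Cycling cells were deeper, with medians of 8287 to 9466 UMIs in NK cells against 3226 to 3673, and 6243 to 7920 in Treg against 2270 to 2728. No fit was made for these splits, and the part of depth in them was not tested. With 4 tumors an exact permutation test of paired values cannot go below 0.125.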
